A study of Mus musculus with 12 samples.

Results

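The genes described here encode the degradative machinery of the lysosome in microglia, the resident macrophages of the brain: cathepsins, other acid hydrolases, their protein cofactors, membrane proteins and transporters, and subunits of the proton pump, together with the transcription factor Tfeb. They were chosen as a list of 35 genes by name, and each is shown by its brightest probe set, judged by the mean of the 12 arrays. A probe set was named for 34 of the 35, out of 18193 genes on the array; Cd63, a lysosomal tetraspanin, was not analysed here. All 34 passed the filter on dim signals (a log2 value over 5 in 3 or more arrays), as did 9120 genes in all, although Gla did so only through its Balb/c arrays. The RNA came from CD11b+ cells sorted from the hippocampi of female mice, 1 mouse per array and 3 mice in each of 4 groups: Balb/c mice irradiated with 10 Gy, Balb/c sham mice, C57BL/6 mice irradiated with 10 Gy, and C57BL/6 sham mice. X-rays were given as 1 dose at 6.5 weeks of age to a field of 1 cm over the forebrain, under anaesthesia, and cells were taken 1 month later, at 10.5 weeks. Each sample held 5000 to 10000 cells per animal. Values are GCRMA log2 intensities as deposited. A gene is called changed when its adjusted p is below 0.05 in limma, over all 9120 genes, and errors of changes are standard errors from that fit.

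Lysosomes digest proteins, lipids and glycans with enzymes that work best in acid. The vacuolar-type ATPase acidifies the organelle by pumping protons through a membrane-embedded sector, V0, with energy from ATP hydrolysed by a cytosolic sector, V1. TFEB binds E-box sites in promoters of many lysosomal genes, and in microglia lysosomes handle myelin debris, dead cells and synaptic material taken up from the tissue.

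The members were bright in these cells: 31 of the 34 passed even a filter of 7 in 3 arrays. Of 14 microglial marker genes 13 had a probe set, and their mean log2 level was 12.9 to 13.1 in Balb/c irradiated, 13.2 in Balb/c sham, 13.1 to 13.2 in C57BL/6 irradiated and 13.3 in C57BL/6 sham mice. After irradiation 1 of these 13 was called lower in Balb/c, 0 in C57BL/6 and 3 on average, and 0 were called higher. Several lists of markers of other cells that CD11b also gates, or that could be carried along, were higher after irradiation. Of the tested markers, 2 of 6 for monocytes, 3 of 10 for border-associated macrophages and 2 of 4 for neutrophils were called higher in Balb/c. So were 3 of 10 for astrocytes and 2 of 8 for endothelial cells and pericytes. In C57BL/6 4 of 6 for monocytes and 0 of the others were called higher. There 8 of 10 astrocyte markers, all higher, had an unadjusted p under 0.05. The same count, 8 of 10, held for border-associated macrophages, 7 of them higher. Over all genes 6.15% were called in Balb/c and 3.67% in C57BL/6, in either direction. Neutrophil markers had a median change of 3.36 in Balb/c and 0.02 in C57BL/6, with 2 of 4 above 0 in C57BL/6. The mean of 8 neutrophil markers was 4.20 to 6.23 in Balb/c irradiated against 3.19 to 3.40 in Balb/c sham mice. These sham values are near the lowest on the arrays, 2.23. The mean was 3.88 to 6.65 in C57BL/6 irradiated against 3.78 to 5.89 in C57BL/6 sham mice. No oligodendrocyte or neuron marker was called in limma (1 of 6 and 1 of 7 at an unadjusted p under 0.05 in Balb/c, 0 of both in C57BL/6), and their median changes were -0.05 and -0.27 in Balb/c and -0.14 and 0.15 in C57BL/6. The mean of 8 monocyte markers was 5.94 to 6.91 in Balb/c irradiated against 5.45 to 5.86 in Balb/c sham mice, and 6.69 to 7.50 in C57BL/6 irradiated against 5.29 to 6.38 in C57BL/6 sham mice. The mean of 10 astrocyte markers was 9.56 to 10.4 against 8.81 to 9.28 in Balb/c irradiated and sham mice, and 9.44 to 9.90 against 8.52 to 9.27 in C57BL/6 irradiated and sham mice. That of 11 markers of border-associated macrophages was 8.99 to 9.36 against 8.41 to 8.59 and, in C57BL/6, 9.63 to 9.94 against 8.63 to 9.78. Vcan of the monocyte list, Siglec1 of the macrophage list, Mmp8 of the neutrophil list, and Pecam1 and Cdh5 of the endothelial list lay below 5 in every array. The part of these cells in the lysosomal results was not tested, and in sorted bulk RNA a shift in cell numbers and a shift in RNA per cell cannot be told apart.

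After irradiation 0 of the 34 members passed the test in Balb/c and 1 in C57BL/6, Gla, which rose. Over all genes 6.15% were called in Balb/c and 3.67% in C57BL/6. At an unadjusted p under 0.05 there were 5 members in Balb/c, all lower, where 22.8% of all genes reached that level, and 9 members in C57BL/6, of which 7 were higher, against 21.3% of all genes. The median member change was -0.08 in Balb/c and 0.08 in C57BL/6, beside medians of -0.04 in both strains over all genes. The C57BL/6 value depended on the probe set. By the mean of all probe sets it was -0.003, with 15 of 34 members above 0, against 24 of 34 by the brightest. In Balb/c that mean gave -0.11, with 8 of 34 above 0, against 9 of 34. The 95% confidence interval of the change lay within 1 log2 unit either way for 32 of the 34 members in Balb/c and 33 in C57BL/6. With the strains averaged, 5 of 34 were called, a share of 14.7% beside 15.9% of all genes: Gla, Gusb and Atp6v1a rose, and Npc1 and Tfeb fell. With a covariate for the 3' minus 5' signal of control transcripts, a measure of RNA and amplification quality, 5 were again called but Gla, Npc1 and Atp6v1a were not among them, and Atp6v0d1, Cd68 and Ctsz were. The lysosomal genes as a list were thus called about as often as genes in general.

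**Figure D1:**
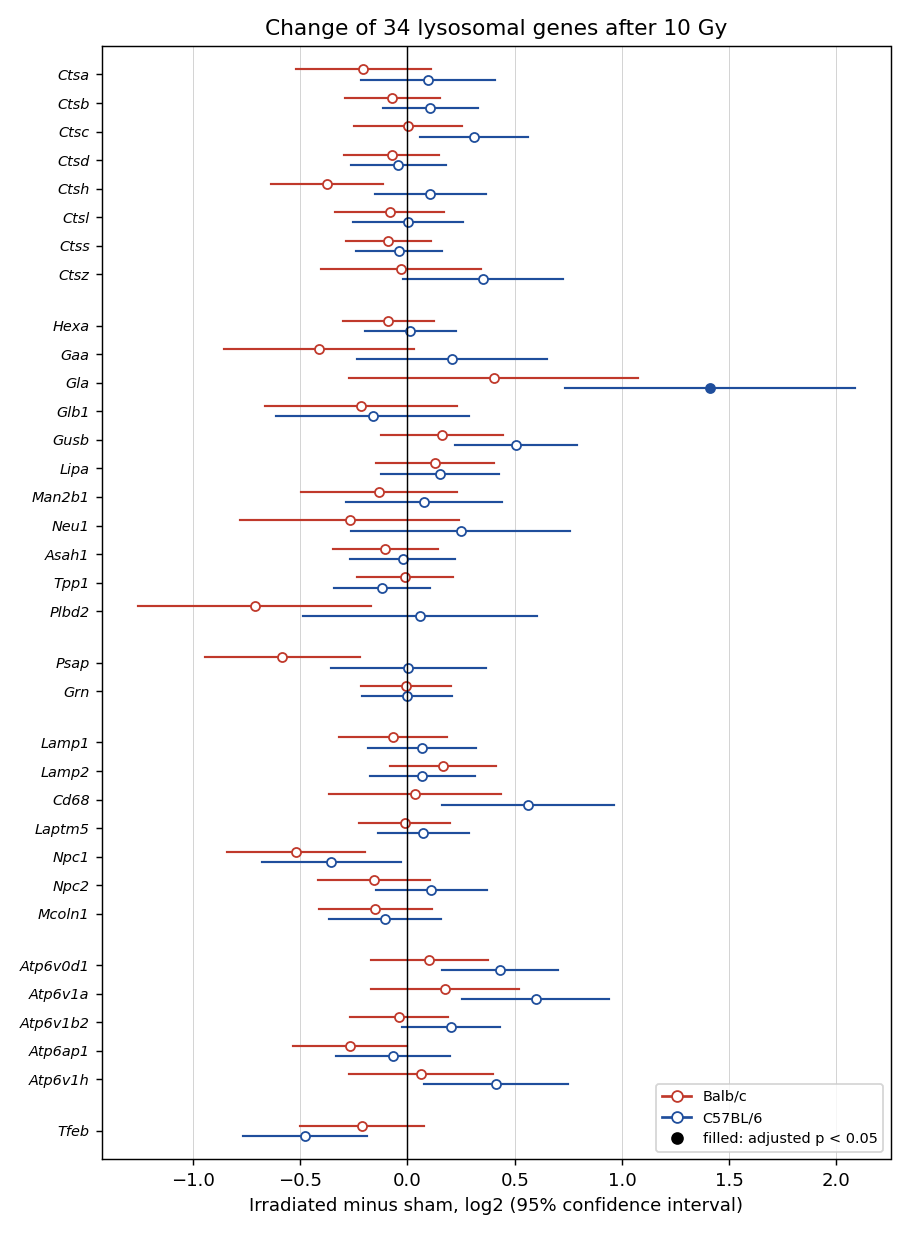
Change after 10 Gy for the 34 members, by role from top to bottom (cathepsins, other hydrolases, cofactors, membrane proteins, proton pump, Tfeb). The x axis is irradiated minus sham in log2 units with 95% confidence intervals, Balb/c (red) above C57BL/6 (blue); Gla in C57BL/6, at 1.41, is the 1 filled point.

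The promoters of several members carry the core of the site that TFEB is known to bind. RefSeq promoters (GRCm38.p6, 250 bases before to 50 after the start) were found for 28 of the 35 genes, and 10 of these (35.7%) hold CACGTG, which reads the same on both strands, against 8.09% of 27025 genes. The longer palindrome TCACGTGA, which contains that core, is in 6 of the 28 (21.4%) and in 1.12% of all genes. Its carriers are Gla and Ctsa (2 times each), Atp6v1a, Atp6v0d1, Ctsd and Mcoln1. Of these Atp6v0d1, Ctsa, Ctsd and Mcoln1 were not called after irradiation in either strain or on average. Of 12 further pump genes with a promoter 1 has it. The windows shown are those of genes described at length below: Gla, 2 pump genes, Ctsa (1 of its 2), and Gaa, which has the core alone. Capitals mark the core. A match is a run of letters, not a bound site.
Gla (chrX:134601215-134601244, minus strand): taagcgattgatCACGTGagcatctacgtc
Gla (chrX:134601182-134601211, minus strand): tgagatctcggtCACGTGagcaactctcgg
Atp6v1a (chr16:44139373-44139402, minus strand): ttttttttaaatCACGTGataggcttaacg
Atp6v0d1 (chr8:105566050-105566079, minus strand): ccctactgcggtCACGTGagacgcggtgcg
Ctsa (chr2:164833749-164833778, plus strand): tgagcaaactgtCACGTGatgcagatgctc
Gaa (chr11:119267811-119267840, plus strand): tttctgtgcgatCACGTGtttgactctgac

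Among the cathepsins, the main lysosomal proteases, 0 of 8 passed the test after irradiation in either strain, and 1 in each strain had an unadjusted p under 0.05. Ctsc encodes dipeptidyl peptidase 1, which activates serine proteases of immune cells. It measured 14.76, 14.70 and 14.78 in Balb/c irradiated mice, against 14.79, 14.57 and 14.88 in Balb/c sham mice. The irradiated C57BL/6 mice gave 14.29, 14.39 and 14.54, against 13.99, 14.16 and 14.15 in C57BL/6 sham mice. The C57BL/6 groups did not overlap and those of Balb/c did, and the changes were 0.00 ± 0.11 in Balb/c and 0.31 ± 0.11 in C57BL/6 (adjusted p = 0.154 in C57BL/6). Ctsh, an aminopeptidase, measured 13.35, 13.15 and 13.26 in Balb/c irradiated mice, below the 13.69, 13.56 and 13.64 of Balb/c sham mice. Its change of -0.37 ± 0.12 there had an adjusted p of 0.086, and the C57BL/6 groups overlapped, at 13.21, 13.48 and 13.62 in irradiated against 13.33, 13.31 and 13.36 in sham mice (0.11 ± 0.12). The other cathepsins, Ctsa, Ctsb, Ctsd, Ctsl, Ctss and Ctsz, had changes from -0.21 to -0.03 in Balb/c and from -0.04 to 0.35 in C57BL/6. Of these Ctss, the bulk endopeptidase of antigen presentation, was bright in every array, at 15.54 to 15.73, near the highest value on the arrays, 16.17. Its changes were -0.09 ± 0.09 in Balb/c and -0.04 ± 0.09 in C57BL/6. Whether the signal is compressed at that level was not tested.

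Of the 11 other hydrolases Gla and Gusb rose over the 2 strains together. Gla encodes alpha-galactosidase A, the glycolipid-cleaving enzyme missing in Fabry disease. It measured 5.52, 5.10 and 5.24 in Balb/c irradiated mice, against 5.03, 4.44 and 5.19 in Balb/c sham mice, and 3.88, 4.25 and 4.72 in C57BL/6 irradiated mice, against 2.67, 2.44 and 3.52 in C57BL/6 sham mice. Every C57BL/6 irradiated array lay above every C57BL/6 sham array, whereas the Balb/c groups overlapped. The change was 0.40 ± 0.31 in Balb/c (adjusted p = 0.477), 1.41 ± 0.31 in C57BL/6 (adjusted p = 0.034) and 0.91 ± 0.22 on average (adjusted p = 0.0191). No C57BL/6 array was above 5, and these intensities are close to the lowest value on the arrays, 2.23, at which its other probe sets lay throughout, so no fold is given. With values under 4 set to 4 the C57BL/6 change was 0.32 (adjusted p = 0.409) and the average 0.36 (adjusted p = 0.134). The average was also not called with the covariate (0.94, adjusted p = 0.0507). Leaving out 1 of 5 arrays in turn also ended the C57BL/6 call (C57BL/6 sham replicates 1 and 2, C57BL/6 irradiated replicates 2 and 3, Balb/c sham replicate 1), with adjusted p up to 0.131.

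Gusb encodes beta-glucuronidase, which trims glycosaminoglycans. It measured 11.15, 10.74 and 11.13 in Balb/c irradiated mice, against 10.83, 10.87 and 10.83 in Balb/c sham mice. C57BL/6 irradiated mice gave 11.00, 11.31 and 11.11, against 10.69, 10.63 and 10.59 in C57BL/6 sham mice, with no overlap. Changes were 0.16 ± 0.13 in Balb/c (adjusted p = 0.493) and 0.51 ± 0.13 in C57BL/6 (adjusted p = 0.059), and the average was 0.33 ± 0.09 (adjusted p = 0.0323). That call was lost without any 1 of 9 arrays, with adjusted p up to 0.0729 without Balb/c irradiated replicate 3. Its second probe set had an average change of 0.08 ± 0.26.

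The remaining 9 hydrolases were not called after irradiation. Plbd2, a phospholipase B-like protein, measured 6.41, 5.51 and 5.92 in Balb/c irradiated mice, against 6.45, 7.08 and 6.45 in Balb/c sham mice, without overlap, and its change was -0.71 ± 0.25 (adjusted p = 0.115). In C57BL/6 it was 5.82, 6.03 and 5.50 in irradiated mice against 5.62, 5.92 and 5.63 in sham mice. Gaa, the acid alpha-glucosidase of glycogen breakdown, had changes of -0.41 ± 0.20 in Balb/c and 0.21 ± 0.20 in C57BL/6. The hexosaminidase subunit Hexa, the beta-galactosidase Glb1, the cholesteryl ester lipase Lipa, the mannosidase Man2b1, the sialidase Neu1, the ceramidase Asah1 and the peptidase Tpp1 had changes from -0.27 to 0.13 in Balb/c and from -0.16 to 0.25 in C57BL/6.

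The cofactors Psap and Grn are processed in the lysosome to saposins, which present lipids to hydrolases, and to granulins. Psap measured 13.68, 12.96 and 13.49 in Balb/c irradiated mice, all below the 14.07, 13.81 and 13.99 of Balb/c sham mice. In C57BL/6 it measured 13.65, 13.76 and 13.72 in irradiated mice against 13.66, 13.74 and 13.71 in sham mice. The changes were -0.58 ± 0.16 in Balb/c (adjusted p = 0.0609) and 0.00 ± 0.16 in C57BL/6. Without Balb/c irradiated replicate 2, the lowest array and the one with the highest 3' minus 5' signal, the Balb/c change was -0.37 (adjusted p = 0.12), and with the covariate -0.28 (adjusted p = 0.427). A second Psap probe set gave 7.98, 7.05 and 7.31 in Balb/c irradiated mice, against 8.93, 9.03 and 8.76 in Balb/c sham mice. Tested with every probe set as its own feature, it fell by 1.46 ± 0.21 in Balb/c (adjusted p = 0.0045), and its C57BL/6 change was -0.36 ± 0.21 (adjusted p = 0.368). Grn spanned a narrow range: 14.75, 14.88 and 14.80 in Balb/c irradiated, 14.89, 14.77 and 14.79 in Balb/c sham, 14.75, 14.75 and 14.64 in C57BL/6 irradiated and 14.80, 14.67 and 14.68 in C57BL/6 sham mice. Its 95% interval for the change ran from -0.22 to 0.20 in Balb/c and from -0.21 to 0.21 in C57BL/6.

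Among 7 membrane proteins and lumenal transporters, Npc1 fell. Npc1 and Npc2 hand cholesterol out of the lysosome. Npc1 measured 10.49, 10.28 and 10.55 in Balb/c irradiated mice, against 10.83, 10.94 and 11.10 in Balb/c sham mice, with no overlap. C57BL/6 irradiated mice gave 10.72, 10.90 and 10.51 against 11.20, 10.84 and 11.17 in C57BL/6 sham mice, where 1 sham array lay within the irradiated range. It was the 1 member with an unadjusted p under 0.05 in both strains and the same sign: -0.52 ± 0.15 in Balb/c (adjusted p = 0.061), -0.35 ± 0.15 in C57BL/6 (adjusted p = 0.193) and -0.44 ± 0.10 on average (adjusted p = 0.0184). The average stayed called when single arrays were left out, but not with the 3' minus 5' signal of control transcripts as a covariate (-0.41, adjusted p = 0.0622), nor without both Balb/c irradiated replicate 2 and C57BL/6 irradiated replicate 3, a pair that stood apart (-0.35, adjusted p = 0.0765). Npc2 had changes of -0.16 ± 0.12 in Balb/c and 0.11 ± 0.12 in C57BL/6.

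Cd68, the heavily glycosylated macrophage lysosomal protein, measured 12.62, 11.87 and 12.27 in Balb/c irradiated mice, against 12.43, 12.13 and 12.09 in Balb/c sham mice. C57BL/6 irradiated mice gave 12.72, 12.93 and 12.90 against 12.46, 12.18 and 12.22 in C57BL/6 sham mice. The C57BL/6 groups were apart and those of Balb/c mixed, with changes of 0.03 ± 0.18 in Balb/c and 0.56 ± 0.18 in C57BL/6 (adjusted p = 0.114). The structural proteins Lamp1 and Lamp2, the transmembrane protein Laptm5 and the calcium channel Mcoln1 had changes from -0.15 to 0.17 in Balb/c and from -0.10 to 0.07 in C57BL/6. With every probe set as its own feature, 2 dimmer ones of Lamp2 gave 0.54 and 0.47 on average over the strains (adjusted p = 0.0146 and 0.0527), beside 0.12 for the brightest.

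**Figure D2:**
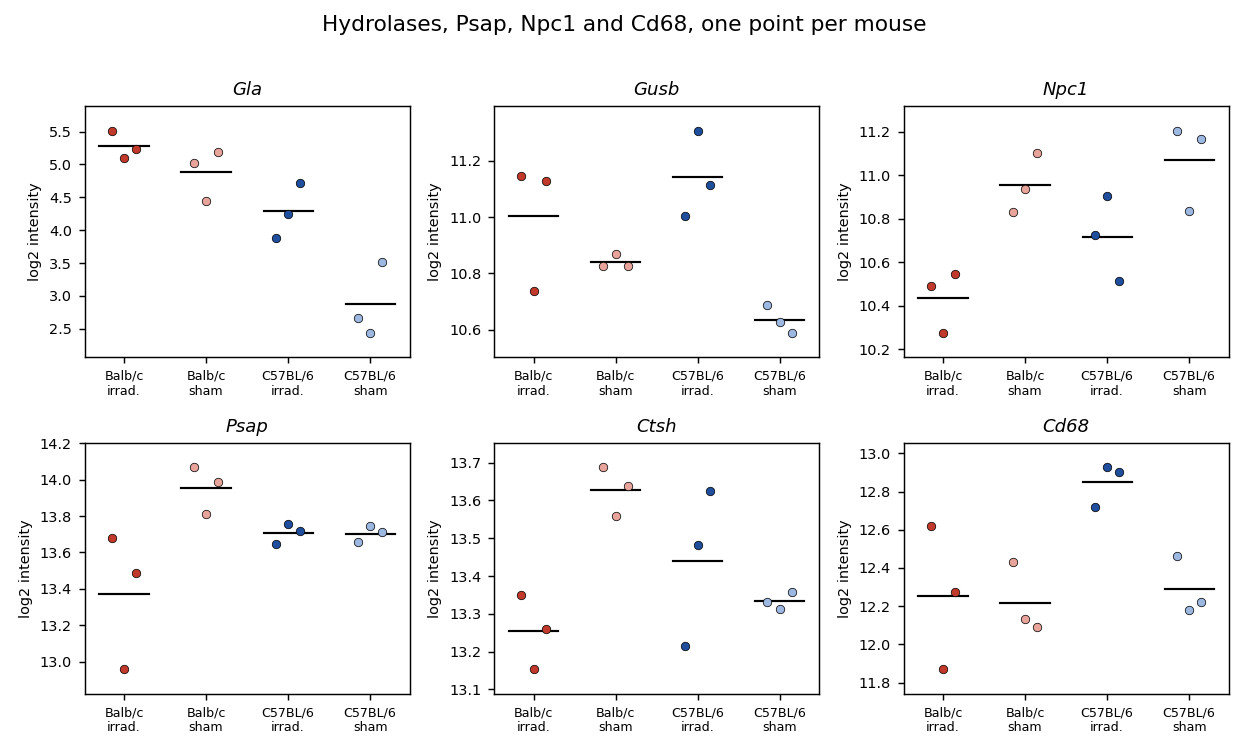
Log2 intensity per mouse (y axis, own scale in each panel) of Gla, Gusb, Npc1, Psap, Ctsh and Cd68 in the 4 groups, with group means as lines. Gla, Gusb and Cd68 are separated between irradiated and sham C57BL/6 mice, and Npc1, Psap and Ctsh between irradiated and sham Balb/c mice.

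The 5 proton pump members were measured in both sectors. Atp6v1a, the V1 subunit that hydrolyses ATP, measured 11.61, 11.43 and 11.52 in Balb/c irradiated mice, against 11.26, 11.25 and 11.54 in Balb/c sham mice. In C57BL/6 it measured 11.32, 11.34 and 11.82 in irradiated mice against 11.08, 10.82 and 10.78 in sham mice. It rose by 0.39 ± 0.11 on average (adjusted p = 0.0387), with 0.17 ± 0.16 in Balb/c (adjusted p = 0.549) and 0.60 ± 0.16 in C57BL/6 (1.51-fold, adjusted p = 0.0643). The average lost its call without any 1 of 8 arrays, and leaving out Balb/c sham replicate 1 gave the highest adjusted p, 0.0858; with the covariate it was 0.42 (adjusted p = 0.0691). Its second probe set gave similar values, 0.27 in Balb/c and 0.52 in C57BL/6.

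Atp6v0d1, the V0 subunit that links the rotor to the V1 stalk, measured 11.25, 10.93 and 11.08 in Balb/c irradiated mice, against 11.16, 10.85 and 10.94 in Balb/c sham mice. C57BL/6 irradiated mice gave 10.95, 11.14 and 11.15, above the 10.68, 10.68 and 10.59 of C57BL/6 sham mice. Its changes were 0.10 ± 0.12 in Balb/c and 0.43 ± 0.12 in C57BL/6 (adjusted p = 0.0796). Atp6v1h, a regulatory V1 subunit, measured 9.83, 10.06 and 9.98 in Balb/c irradiated mice against 10.03, 9.74 and 9.91 in Balb/c sham mice. C57BL/6 irradiated mice gave 9.93, 10.52 and 10.39 against 9.84, 9.83 and 9.93 in C57BL/6 sham mice, a change of 0.41 ± 0.15 (adjusted p = 0.154) in which replicate 1 lay at the sham level.

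Atp6v1b2, the brain-type B subunit of V1, measured 10.35, 10.22 and 10.49 in Balb/c irradiated mice against 10.43, 10.27 and 10.47 in Balb/c sham mice. In C57BL/6 it measured 10.15, 10.08 and 10.19 in irradiated mice against 9.92, 9.96 and 9.93 in sham mice. The C57BL/6 groups did not overlap, but the change was small, 0.20 ± 0.10 (adjusted p = 0.283), and in Balb/c it was -0.04 ± 0.10. Atp6ap1, an assembly factor of the pump, measured 12.84, 12.48 and 12.53 in Balb/c irradiated mice against 12.93, 12.92 and 12.80 in Balb/c sham mice. It stood apart from the other pump members, with changes of -0.27 ± 0.12 in Balb/c and -0.07 ± 0.12 in C57BL/6, where it measured 12.56, 12.57 and 12.39 in irradiated mice against 12.66, 12.48 and 12.58 in sham mice.

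Tfeb, the regulator named above, fell by 0.35 ± 0.09 on average (adjusted p = 0.0307). It measured 7.06, 7.39 and 7.01 in Balb/c irradiated mice, against 7.22, 7.53 and 7.36 in Balb/c sham mice, with overlap. The irradiated C57BL/6 mice gave 6.78, 6.61 and 6.59, all below the 7.17, 7.20 and 7.05 of C57BL/6 sham mice. The changes were -0.21 ± 0.13 in Balb/c (adjusted p = 0.377) and -0.48 ± 0.13 in C57BL/6 (adjusted p = 0.0719). Its averaged call was lost without any 1 of 8 arrays, and leaving out Balb/c sham replicate 2 gave the highest adjusted p, 0.0732. TFEB is regulated largely by phosphorylation and its place in the cell, which an array of transcripts does not measure.

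**Figure D3:**
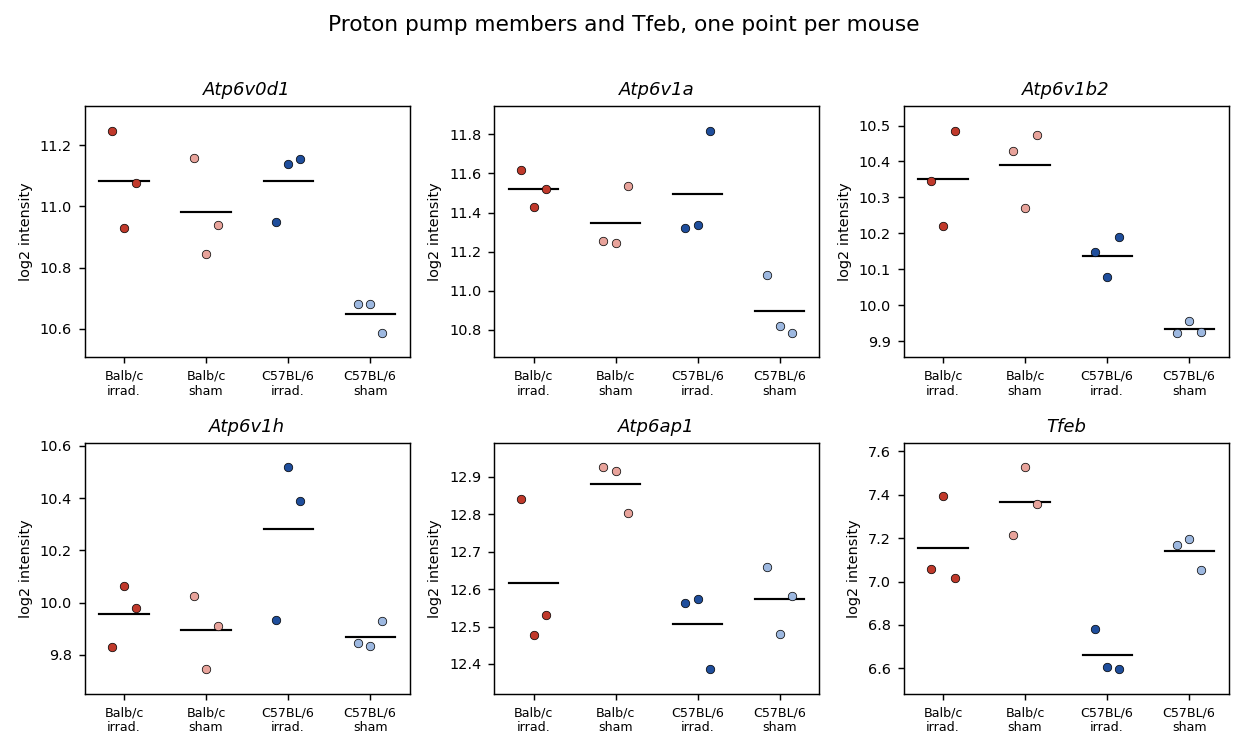
Log2 intensity per mouse (y axis, own scale in each panel) of the 5 proton pump members and Tfeb in the 4 groups, with group means as lines. In C57BL/6 the irradiated arrays lie above the sham arrays for Atp6v0d1, Atp6v1a and Atp6v1b2 and below them for Tfeb.

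Set against the cathepsins and other hydrolases, the pump members had the higher median change in both strains. The medians were 0.06 for the 5 pump members and -0.09 for the 19 hydrolases in Balb/c, and 0.41 for the pump and 0.10 for the hydrolases in C57BL/6. The pump therefore exceeded the hydrolases by 0.15 in Balb/c and 0.32 in C57BL/6. By array, the pump median minus the hydrolase median (each gene taken relative to its own mean over the 12 arrays) was -0.04, 0.15 and 0.04 in Balb/c irradiated mice, against 0.03, -0.17 and 0.08 in Balb/c sham mice. It was 0.10, -0.01 and 0.28 in C57BL/6 irradiated mice, against -0.18, -0.11 and -0.14 in C57BL/6 sham mice. The C57BL/6 groups did not overlap and those of Balb/c did. In Balb/c the difference became -0.02 with the 3' minus 5' signal of control transcripts as a covariate. That signal was 3.70 to 4.82 in Balb/c irradiated mice, highest in replicate 2, against 3.54 to 3.81 in Balb/c sham mice. It was 3.55 to 3.77 in C57BL/6 irradiated and 3.50 to 3.75 in C57BL/6 sham mice. The log2 signal of 18S ribosomal RNA separated irradiated from sham mice in both strains, at 10.5 to 11.6 in Balb/c irradiated against 11.9 to 12.3 in Balb/c sham mice, and 11.6 to 11.8 in C57BL/6 irradiated against 12.1 to 12.3 in C57BL/6 sham mice. Its part in the results was not tested.

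The rest of the pump was less uniform. Of 16 further subunits and accessory proteins, 15 had a probe set here, and 11 passed the filter. Atp6v0a2, a V0 a-subunit isoform of Golgi and endosomes, measured 9.15, 9.20 and 9.12 in Balb/c irradiated mice, against 9.55, 9.59 and 9.69 in Balb/c sham mice. It fell by 0.45 ± 0.09 in Balb/c (adjusted p = 0.016) and by 0.29 ± 0.06 on average (adjusted p = 0.0126), with -0.14 in C57BL/6. The Balb/c call was lost without Balb/c sham replicate 2 or 3 or Balb/c irradiated replicate 3 (adjusted p up to 0.0564). Tcirg1, the a-subunit isoform best known from osteoclasts and macrophages, fell by 0.27 ± 0.08 on average (adjusted p = 0.044), and the V1 stalk subunit Atp6v1d rose by 0.30 ± 0.09 (adjusted p = 0.0455). Both of these were lost without any 1 of 8 or 9 arrays, with adjusted p up to 0.102. Between strains, Atp6v0e2 was higher in Balb/c sham mice by 1.28 ± 0.36 (adjusted p = 0.046) and Atp6v1d lower in Balb/c irradiated mice (-0.47 ± 0.13, adjusted p = 0.0473), each lost without any 1 of 9 arrays. Over all 16 tested subunits, members included, the median change was 0.01 in Balb/c, with 8 of 16 above 0, and 0.22 in C57BL/6, with 12 of 16 above 0.

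The next question was whether the change after irradiation differed between the strains. The test of that difference called 0 of 34 members in limma, beside 0.0768% of all genes; 4 members (Ctsh, Gla, Plbd2 and Psap) had an unadjusted p under 0.05, beside 8.06% of all genes. The direction was nevertheless shared: 31 of 34 members had a lower change in Balb/c than in C57BL/6, as did 52.7% of all genes, with a median difference of -0.21 beside -0.02 over all genes. This held for 5 of 5 pump members and 18 of 19 hydrolases, and for all 16 tested pump subunits. The exceptions were Tpp1, Lamp2 and Tfeb. Leaving out single arrays gave counts of 27 to 31 of 34, and it was 27 of 34 with the 3' minus 5' covariate. Members tended to be high or low together in an array, so they are not 34 separate observations. Balb/c irradiated replicate 2, the array with the highest 3' minus 5' signal, was the lowest of its group for 26 of 34 members, beside 35.8% of all genes, and C57BL/6 irradiated replicate 1 for 20 of 34, beside 29.4%. The median difference was -0.13 without Balb/c irradiated replicate 2 and -0.10 with the covariate. Without that array the median member change in Balb/c was -0.03, with 23 of 34 below 0, against -0.08 with 25 of 34 below 0 in the full set. With the covariate it was -0.01, with 19 of 34 below 0.

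Between the strains without irradiation, more members differed. In sham mice 7 of 34 (20.6%) were called and each was higher in Balb/c, beside 10.5% of all genes in either direction and 5.22% higher. Of the 34, 30 had a positive difference (Balb/c minus C57BL/6), with a median of 0.23, beside 55.8% of all genes and a median of 0.04. This comparison and the difference between the strains in the irradiation change share the sham arrays. A high Balb/c or a low C57BL/6 sham level enters both, so neither stands as support for the other. Markers of other cells differed between the sham groups too: all 10 tested markers of border-associated macrophages were lower in Balb/c (median -0.66, 1 called, 7 at an unadjusted p under 0.05), as were 4 of 4 of neutrophils (2 called). For neutrophils the mean of 8 markers in Balb/c sham mice, 3.19 to 3.40, was near the lowest value on the arrays, 2.23, so no size is given. Of 13 tested microglial markers 2 were called lower in Balb/c sham mice and 0 higher. The part of all these markers in the lysosomal strain differences was not tested.

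One of the 7 is Gla, which passed the filter only through Balb/c, where it is brighter, so its strain test supports nothing and its C57BL/6 sham values are too near the lowest on the arrays for a fold. The fitted difference was 2.01, and 0.89 with values under 4 set to 4. The other 6 passed the filter in both strains. Gaa measured 10.68, 10.71 and 10.21 in Balb/c sham mice, against 9.81, 9.75 and 9.51 in C57BL/6 sham mice, a difference of 0.85 ± 0.20 (1.80-fold, adjusted p = 0.020). Plbd2 differed by 0.94 ± 0.25 (1.91-fold, adjusted p = 0.0341), with no overlap between the strains. These 3 hydrolases act on a glycolipid, on glycogen and, for Plbd2, on a substrate not settled. Ctsa, the carboxypeptidase that also shields beta-galactosidase and sialidase, measured 13.21, 13.27 and 13.01 in Balb/c sham mice, against 12.46, 12.46 and 12.52 in C57BL/6 sham mice. Its difference was 0.69 ± 0.14 (1.61-fold, adjusted p = 0.010), and that of Ctsc was 0.65 ± 0.11 (1.56-fold, adjusted p = 0.00399), again without overlap. Npc2 measured 14.28, 14.12 and 14.33 in Balb/c sham mice against 13.90, 13.66 and 13.67 in C57BL/6 sham mice, a difference of 0.50 ± 0.12 (adjusted p = 0.0198). Atp6v1b2 was higher by 0.46 ± 0.10 (adjusted p = 0.0164), and the other 4 pump members had differences from 0.02 to 0.45, none called. Leaving out single arrays ended the calls of Atp6v1b2, Gaa, Npc2 and Plbd2 without 2, 3, 4 and 7 of the 12 arrays, with adjusted p up to 0.125, and none ended those of Gla, Ctsa and Ctsc. The arrays were Balb/c sham replicates 1 and 3 for Atp6v1b2, Balb/c sham replicates 1 and 2 and C57BL/6 sham replicate 3 for Gaa, and Balb/c sham replicates 1 and 3 and C57BL/6 sham replicates 2 and 3 for Npc2.

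In irradiated mice 3 of 34 members were called (8.82%), beside 8.97% of all genes. Tpp1, the tripeptidyl peptidase lost in a childhood neuronal ceroid lipofuscinosis, measured 12.36, 12.44 and 12.44 in Balb/c irradiated mice, against 11.93, 12.12 and 11.98 in C57BL/6 irradiated mice. The difference was 0.41 ± 0.10 (adjusted p = 0.0298), and in sham mice, where Balb/c measured 12.42, 12.51 and 12.35 and C57BL/6 12.01, 12.20 and 12.16, it was 0.30 ± 0.10. Tfeb was higher in Balb/c irradiated mice by 0.49 ± 0.13 (adjusted p = 0.0403). Ctsl, an endopeptidase, was lower: 14.26, 14.19 and 14.21 in Balb/c irradiated mice against 14.53, 14.77 and 14.70 in C57BL/6 irradiated mice (-0.45 ± 0.12, adjusted p = 0.0354). Its sham difference was of like size, -0.36 ± 0.12, from 14.22, 14.17 and 14.51 in Balb/c against 14.62, 14.72 and 14.65 in C57BL/6. The calls of Tpp1, Ctsl and Tfeb were lost without 4, 6 and 8 of the 12 arrays, with adjusted p up to 0.133. With the 3' minus 5' covariate, or without Balb/c irradiated replicate 2, all 3 calls were lost and Ctsa was called in their place (0.67 and 0.54, adjusted p = 0.0314 and 0.0279). None of the 5 pump members was called here, and their differences were 0.00 ± 0.12 for Atp6v0d1, 0.03 ± 0.16 for Atp6v1a, 0.21 ± 0.10 for Atp6v1b2, 0.11 ± 0.12 for Atp6ap1 and -0.32 ± 0.15 for Atp6v1h.

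**Figure D4:**
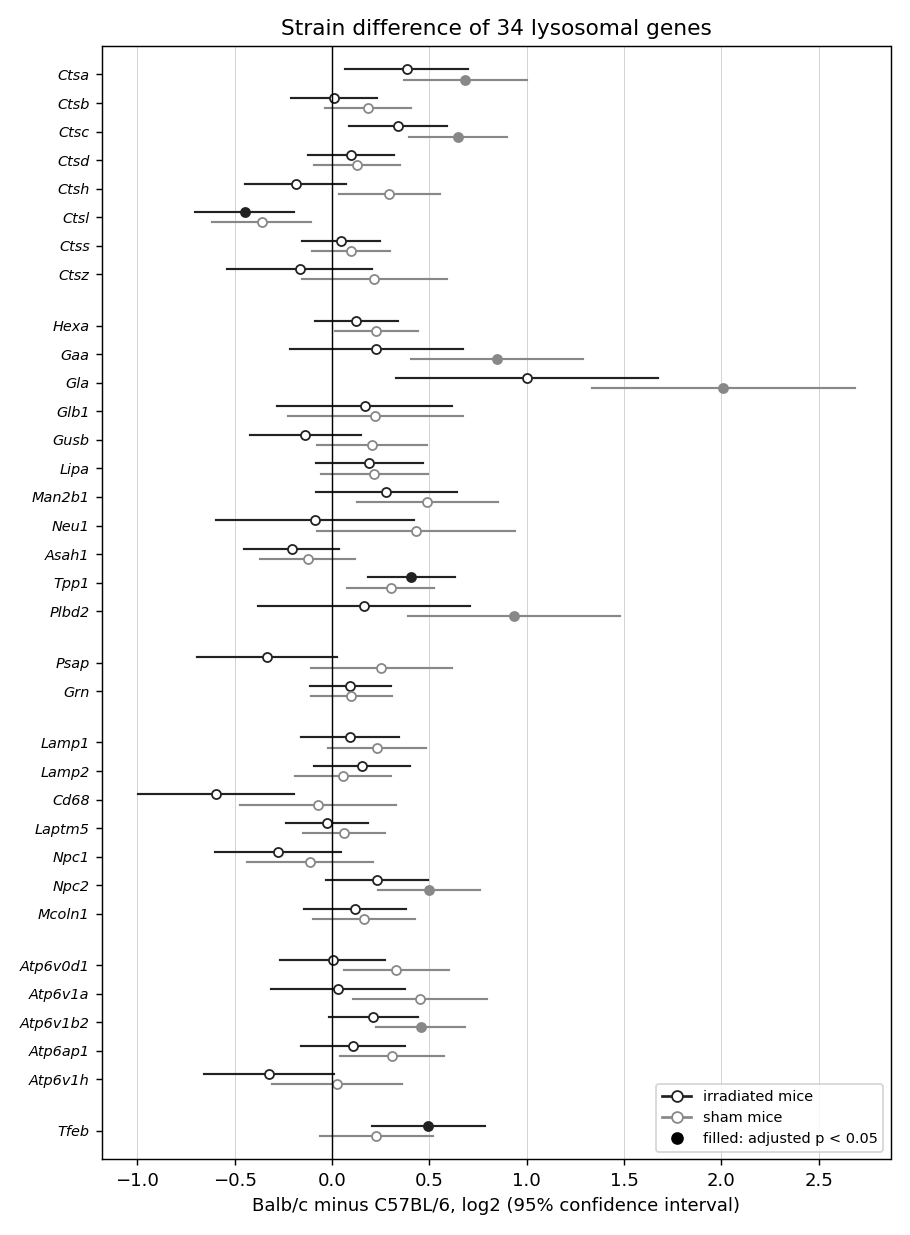
Strain difference of the 34 members, Balb/c minus C57BL/6 in log2 units on the x axis with 95% confidence intervals, in irradiated mice (black) above sham mice (grey). In sham mice 7 points are filled, all to the right of 0; in irradiated mice Tpp1, Tfeb and Ctsl are filled.

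Probe sets of 1 gene did not always give the same strain difference. Of the 19 members with several probe sets above the filter, they shared a sign for 14 in sham mice, 16 for irradiation in Balb/c and 10 for irradiation in C57BL/6. A second Ctsl probe set lay between 2.23 and 2.33 in all 6 Balb/c arrays and between 7.04 and 8.04 in all 6 C57BL/6 arrays, where the bright one differed by -0.36 in sham mice. The Balb/c values lie at the lowest of the arrays, so no size is given. The second Gusb probe set read 3.47, 3.54 and 3.37 in Balb/c irradiated, 3.55, 5.01 and 3.57 in Balb/c sham, 7.67, 7.90 and 8.31 in C57BL/6 irradiated and 6.64, 7.58 and 7.44 in C57BL/6 sham mice. Apart from the 5.01, its Balb/c values lay below the filter of 5. It therefore passed the filter through C57BL/6 arrays, and its strain difference is not read as a size. The bright Gusb probe set differed by 0.21 ± 0.13 in sham mice. A dim Atp6v1h probe set read 2.81, 2.85 and 2.76 in Balb/c sham mice, against 4.03, 5.45 and 5.05 in C57BL/6 sham mice. The bright one differed by 0.02. The dim one passed the filter only through C57BL/6 arrays, so its strain difference is not read as a size. Whether the strains' sequences or isoforms differ under these probes was not tested, and strain differences of Ctsl, Gusb and Atp6v1h therefore depend on the probe set. Ctsc, called higher in Balb/c sham mice by its bright probe set, had differences of -0.17 ± 0.21 and -0.18 ± 0.37 by 2 dimmer ones. For Gaa a second probe set was also called in sham mice (1.02 ± 0.25, adjusted p = 0.0228), as were 2 of 3 further ones of Npc2 (0.53 ± 0.12 and 0.55 ± 0.12), a dim one giving 0.50 ± 0.38 (adjusted p = 0.512). The second of Atp6v1b2 was not called (0.56 ± 0.30, adjusted p = 0.317), and that of Tpp1 was called in irradiated mice (0.38 ± 0.09, adjusted p = 0.0271).

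**Figure D5:**
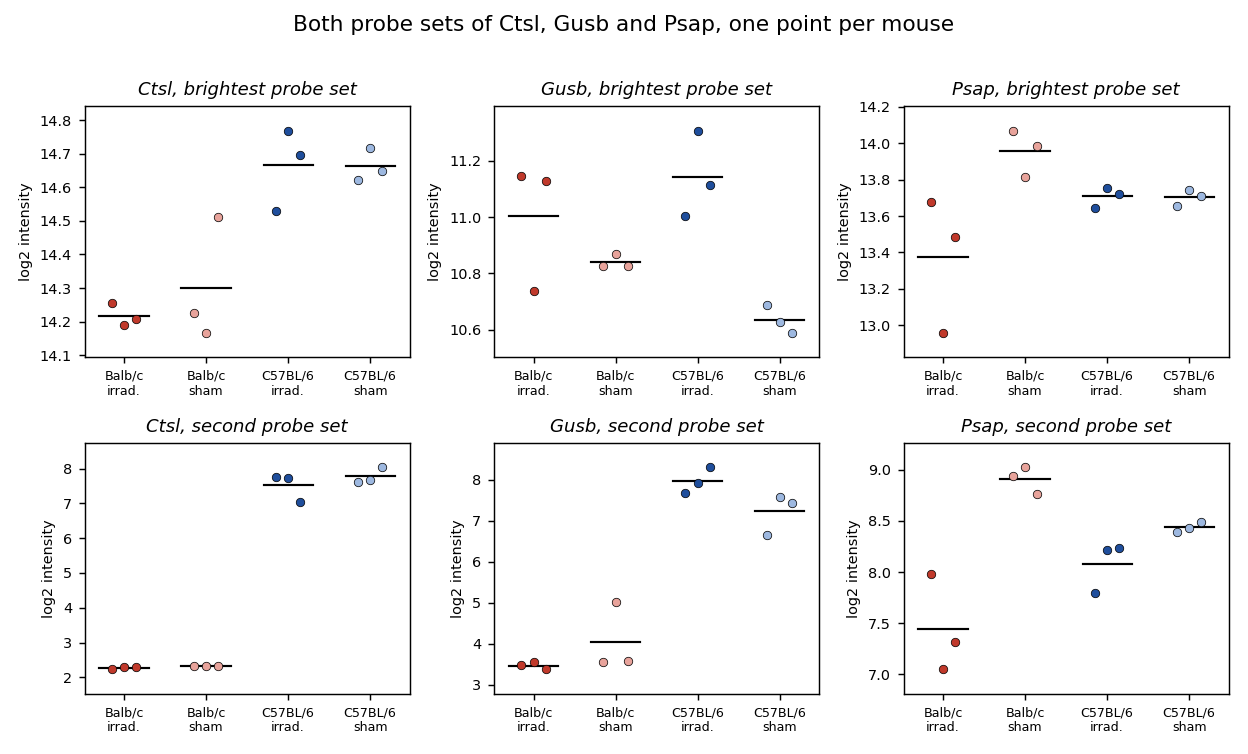
Log2 intensity per mouse (y axis, own scale in each panel) for the brightest (top) and second (bottom) probe set of Ctsl, Gusb and Psap. For Ctsl and Gusb the second probe set is far lower in Balb/c than in C57BL/6; for Psap it shows lower values in irradiated than in sham Balb/c mice, as the brightest does.

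Other genes of the pathway were taken from lists of further hydrolases, membrane proteins, sorting factors, cathepsin inhibitors and regulators. Of 25 tested hydrolases outside the 35, 1 was called higher and 1 lower after irradiation in Balb/c (8%, beside 6.15% of all genes). In C57BL/6 2 were called higher and 1 lower (12%, beside 3.67%). With the strains averaged 4 were called higher and 4 lower (32%, beside 15.9%). The sphingomyelinase Smpd1 measured 10.97, 10.84 and 10.96 in C57BL/6 irradiated mice, against 10.44, 10.40 and 10.61 in C57BL/6 sham mice, and rose by 0.44 ± 0.10 (adjusted p = 0.0452, lost without any 1 of 10 arrays, up to 0.152). Plbd1, a relative of Plbd2, rose by 3.26 ± 0.62 in C57BL/6 (adjusted p = 0.0202). That call was lost when C57BL/6 irradiated replicate 3 or C57BL/6 sham replicate 2 was left out (adjusted p up to 0.0732). In Balb/c Plbd1 measured 8.046, 6.572 and 7.365 in irradiated mice, against 4.998, 4.443 and 5.622 in sham mice, with no overlap. Its Balb/c change, 2.31, was the highest of the 25. Plbd1 is also abundant in monocytes, for which 4 of 6 markers were called higher in C57BL/6 and 2 of 6 in Balb/c. Their part was not tested. The phosphatase Acp2 fell by 0.66 ± 0.14 in C57BL/6 (adjusted p = 0.0321, lost without any 1 of 6 arrays) and by 0.56 ± 0.10 on average (adjusted p = 0.00583), and the phospholipase Pla2g15 fell by 0.81 ± 0.16 in Balb/c (adjusted p = 0.0142) and by 0.70 ± 0.11 on average. On average the sulfatases Arsa (-0.35) and Sgsh (-0.51) also fell and the galactocerebrosidase Galc (0.45) rose. The 1 called higher in Balb/c was Sgpp1 (1.12 ± 0.18), which was on the list in error, since its phosphatase resides in the endoplasmic reticulum. Without Sgpp1 no gene of this list was called higher in Balb/c, and the shares given for the 25 include it.

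Strain differences were wide for some of these hydrolases. Arsb, a sulfatase of dermatan sulfate, measured 14.64, 14.63 and 14.63 in Balb/c irradiated mice and 14.73, 14.60 and 14.64 in Balb/c sham mice, against 13.28, 13.50 and 13.20 in C57BL/6 irradiated mice and 13.30, 13.27 and 13.24 in C57BL/6 sham mice. The difference was 1.39 ± 0.10 in sham and 1.30 ± 0.10 in irradiated mice (adjusted p = 7.28e-06 and 1.5e-05), and Arsb had changes of -0.02 in Balb/c and 0.06 in C57BL/6 after irradiation. The heparan sulfatase Sgsh was higher in Balb/c by 1.47 ± 0.18 in sham and 1.26 ± 0.18 in irradiated mice. In all, 6 of the 25 were called higher and 2 lower in Balb/c in sham mice, and 4 higher and 1 lower in irradiated mice, beside 10.5% and 8.97% of all genes. Sgpp1 is among the 25 but was not called between strains. The higher ones in sham mice were Arsb, Sgsh, Manba, Fuca2, Smpd1 and Ppt1, and Idua and Acp2 were lower. In irradiated mice Arsb, Sgsh, Ppt1 and the aspartic protease Ctse were higher and Idua lower. Ctse, counted among the 4, passed the filter only through Balb/c arrays, where it is brighter. It read 2.76, 2.75 and 3.47 in C57BL/6 irradiated mice, near the lowest value on the arrays. Its strain test therefore supports nothing and no size is given.

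In C57BL/6 2 of 12 further membrane proteins had an unadjusted p under 0.05 after irradiation. Of the 12, 0 were called there, beside 3.67% of all genes, and 1 was called in Balb/c, beside 6.15%. It was Slc11a1, the phagosomal metal transporter Nramp1, which fell by 0.87 ± 0.20 (adjusted p = 0.0309) and was lower in Balb/c than in C57BL/6 irradiated mice (-0.87 ± 0.20); each call was lost without any 1 of 4 arrays. The sialic acid transporter Slc17a5 was higher in Balb/c by 0.50 ± 0.12 in both conditions, and the membrane protein Scarb2 by 0.40 ± 0.10 in sham mice. Of 8 sorting genes 2 were called in Balb/c and 0 in C57BL/6, beside 6.15% and 3.67% of all genes. Both fell: Sort1, the sortilin receptor, by 0.67 ± 0.17 (adjusted p = 0.0414) and Nagpa, which uncovers mannose-6-phosphate, by 0.68 ± 0.18 (adjusted p = 0.0496). Leaving out single arrays ended these 2 calls without 8 and 10 of the 12 arrays, with adjusted p up to 0.156.

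Of the 4 tested cathepsin inhibitors 2 were called in Balb/c and 1 in C57BL/6, all higher, beside 6.15% and 3.67% of all genes in either direction. Cst7, cystatin F, measured 8.59, 8.22 and 9.21 in Balb/c irradiated mice, against 5.33, 6.02 and 5.78 in Balb/c sham mice, and 10.39, 10.45 and 10.22 in C57BL/6 irradiated mice, against 8.15, 7.73 and 7.35 in C57BL/6 sham mice. Irradiated and sham mice were far apart in both strains, and at each condition Balb/c lay below C57BL/6 (-2.03 ± 0.27 in sham and -1.68 ± 0.27 in irradiated mice). Serpinb6a rose by 1.03 ± 0.19 in Balb/c (adjusted p = 0.0126, 0.0517 without Balb/c sham replicate 1) and 0.88 ± 0.14 on average, and Cstb by 0.24 ± 0.07 on average (adjusted p = 0.0401). The fourth, Cst3, cystatin C, was not called. The cathepsin transcripts listed above were not called in either strain.

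Among 15 tested regulators, Rptor, the mTORC1 scaffold raptor, fell by 0.74 ± 0.12 in Balb/c (adjusted p = 0.00609), 0.59 ± 0.12 in C57BL/6 (adjusted p = 0.0239, lost without any 1 of 5 arrays) and 0.66 ± 0.08 on average. The other 14 were not called after irradiation, where 6.15% of all genes were called in Balb/c and 3.67% in C57BL/6. Tfe3, a factor related to Tfeb that binds the same site, was higher in Balb/c by 1.38 ± 0.20 in sham and 1.50 ± 0.20 in irradiated mice (adjusted p = 0.00117 and 0.000794). It measured 9.31, 8.81 and 9.02 in Balb/c irradiated and 9.35, 9.42 and 9.16 in Balb/c sham mice, against 7.57, 7.77 and 7.30 in C57BL/6 irradiated and 8.35, 7.67 and 7.77 in C57BL/6 sham mice. The Ragulator subunit Lamtor3 was also higher in Balb/c, by 0.34 ± 0.09 in sham and 0.36 ± 0.09 in irradiated mice.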

How the data were processed

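Expression was measured in 12 samples on 1-colour Affymetrix arrays after 2 rounds of amplification, with an RNA integrity number above 7.4 per the labels' protocols. The deposited table holds log2 values for 45101 probe sets; GCRMA is named in the submitters' processing notes without a version, and scanner files were not used here. Probe sets with 1 gene symbol (34945) were used, with symbols updated by Entrez identifier to RefSeq (GRCm38.p6). For each gene the probe set with the highest mean was kept, and 9120 of 18193 genes were above 5 in at least 3 arrays. The model, in R 4.3.3 with limma 3.58.1, had 4 group means (8 residual degrees of freedom) and eBayes, and Benjamini-Hochberg adjustment was over all genes tested in each of 6 contrasts. The fit was tested on simulated data. Members and lists were chosen with earlier results of these data known. Alternatives covered filter, probe set, centring, floor, eBayes options, array weights, replicate block, the 3' minus 5' control signal and leaving out arrays. By rule, values per array were given for members called in any contrast, for the 2 with the smallest p of each role and for the pump and Tfeb; of related lists, called genes were named. The replicates are separate mice. The number of arrays limits the precision.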

Additional observations from a re-analysis of the deposited data

How the results depend on the processing

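Counts of members called moved with the setting. After irradiation in Balb/c the count was 0, with 1 by the mean of all probe sets, 1 with every probe set as its own feature, 3 with eBayes trend and robust, 1 with array weights and 0 to 1 leaving out single arrays. In C57BL/6 it was 1, with 0 without a filter, 0 at a floor of 4, 3 with trend and robust, 2 with array weights, 2 with the 3' minus 5' covariate, 0 without a pair of arrays that stood apart (irradiated Balb/c replicate 2, irradiated C57BL/6 replicate 3), 0 in a fit of the compared groups alone, and 0 to 3 leaving out single arrays. The average gave 5, with 1 unfiltered, 2 without the pair of arrays and 2 to 6 leaving out single arrays; with the covariate it was 5, of which only Gusb and Tfeb were shared. In sham mice the strain count was 7, with 11 under trend and robust and 3 to 8 leaving out single arrays. In irradiated mice it was 3, with 5 by the mean of all probe sets, 1 with array weights, 1 with the covariate (Ctsa, not one of the 3), 0 without the pair, 0 in the compared groups alone, and 0 to 3 leaving out single arrays. The difference between the strains in the irradiation change gave 0 under every alternative run; the average and this difference need all groups, so the fit of compared groups alone was not run for them. With the covariate the pump minus hydrolase median in Balb/c was -0.0249. The fitted sham strain difference of Gusb was -1.49 by the mean of all probe sets and -3.18 by its second probe set. That of Atp6v1h was -1.01 by the mean of all probe sets and -2.04 by its dim probe set. Both of these probe sets passed the filter through C57BL/6 arrays. In Balb/c sham mice they lay below 5, apart from a Gusb value of 5.01. The fitted values, and the means that contain them, are therefore not sizes of a strain difference and support nothing. The cause was not tested beyond these alternatives; unfiltered fits adjust over 18193 genes.

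Deviations of same-numbered mice from their group means correlated at 0.06, 0.07 and 0.28 in Balb/c and 0.07, 0.11 and -0.02 in C57BL/6. The main fit did not pair samples by number. Whether same-numbered mice shared a batch was not tested. With a replicate block 0 members were called in Balb/c, 1 in C57BL/6, 4 on average, 7 between sham strains and 3 between irradiated strains, and over all genes 580, 378, 1394, 947 and 793.

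Over all genes the counts were 561 in Balb/c and 335 in C57BL/6, against 283 and 155 unfiltered, 361 and 104 without the pair of arrays, and 364 and 96 in the compared groups alone. With the covariate Balb/c gave 104, the average 873 (1447 without it) and the irradiated strain comparison 336 (818 without it). The average was 867 unfiltered and 788 without the pair, and the irradiated strain comparison 450 without the pair and 533 in the compared groups alone. The difference between the strains gave 7 genes, and 2 to 10 over the alternatives.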
